A study of Mus musculus with 4 samples.

Results

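The mir-17 to mir-92a cluster is a group of 6 miRNA hairpins, Mir17, Mir18, Mir19a, Mir20a, Mir19b-1 and Mir92-1, cut from a single primary transcript. The members were fixed by gene name: they are 6 of the 2202 miRNA hairpins annotated by GENCODE. No measured value entered this rule, though earlier results of these data were known when it was chosen. On mouse build GRCm38 they lie in that order on the plus strand of chromosome 14, at chr14:115043671-115044506, a stretch of 836 bp within the exon at chr14:115043271-115046727 of the long non-coding host gene Mir17hg. The gaps between neighbouring hairpins run from 35 to 96 nt.

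Small RNA was sequenced from fetal livers of mice with catalytic dead Ago2 (Ago2 CD, 2 libraries) and from wildtype fetal livers (2 libraries). Ago2 is an Argonaute, a protein that holds small RNAs and can cut their targets, and the catalytic dead form is expected to bind without cutting. The sources used here give neither the embryonic age, the strain and the zygosity nor whether a library came from 1 liver or from pooled livers. Each library was a list of distinct read sequences with their counts, 13138065 to 21875540 reads in all, of which 7814101 to 14423015 fell on miRNA arms. The longest sequence was 46 nt in Ago2 CD replicate 1 and wildtype replicate 2 and 50 nt in Ago2 CD replicate 2 and wildtype replicate 1, so each length held 1 library of each genotype. These are called the 46 nt and the 50 nt libraries. Each result is therefore also given within these pairs.

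The labels were checked with miR-451a, a miRNA whose maturation needs Ago2 cutting. It had 1203 and 965 CPM (counts per 1000000, scaled by TMM factors) in Ago2 CD livers, against 840601 and 415377 CPM in wildtype livers. miR-122-5p of hepatocytes had 62615 and 27526 CPM in Ago2 CD livers, against 19052 and 48641 CPM in wildtype livers, higher in the 46 nt library of each genotype. miR-192-5p, the other hepatocyte miRNA listed, ran the other way, with 3515 and 4020 CPM in Ago2 CD livers, against 3778 and 3048 CPM in wildtype livers. miR-144-3p of erythroid cells was also higher in the 50 nt library of each genotype. It had 241923 and 326225 CPM in Ago2 CD livers, against 277511 and 163320 CPM in wildtype livers. miR-486-5p, also listed for erythroid cells, had 544 and 642 CPM in Ago2 CD livers, against 2177 and 1666 CPM in wildtype livers. Of the myeloid and lymphoid miRNAs listed, miR-223-3p had 4474 and 3016 CPM in Ago2 CD livers, against 3415 and 5681 CPM in wildtype livers. miR-142-3p and miR-150-5p were likewise higher in the 46 nt library of each genotype. The 3 muscle miRNAs listed (miR-1a, miR-133a and miR-206) had 131 to 364 CPM in wildtype replicate 1 and 1.96 to 16.9 CPM in the other 3 libraries. The neuronal miR-9 and miR-124 were higher in the 46 nt libraries: miR-9 had 13.8 and 10.4 CPM in the 50 nt libraries (Ago2 CD, wildtype) and 216 and 166 CPM in the 46 nt libraries. The part of these tissue differences in the results below was not tested.

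A miRNA hairpin holds a duplex whose strands come from its 5′ and its 3′ side, the 5p and 3p arms, and usually one strand is kept in an Argonaute protein and guides it to mRNAs through its seed, bases 2 to 8. The mir-17 to mir-92a cluster is induced by Myc, and its loss in mice impairs lung and B cell development. miR-17 and miR-20a repress the pro-apoptotic gene Bim, miR-19 is the main driver of Myc lymphoma among the members in mice, and miR-92a represses integrin alpha 5 in endothelial cells.

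RefSeq (GRCm38.p6) lists 11 mature sequences for the 12 arms of the 6 hairpins, and these are shown because seed and 3′ end are what the reads vary in. Capitals mark the seed. The 5p arms are the more abundant ones of mir-17, mir-18a and mir-20a.
miR-17-5p: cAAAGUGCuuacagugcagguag
miR-20a-5p: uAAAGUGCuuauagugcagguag
miR-18a-5p: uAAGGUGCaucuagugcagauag
The 3p arms are the more abundant ones of mir-19a, mir-19b-1 and mir-92a-1.
miR-19a-3p: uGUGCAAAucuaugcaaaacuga
miR-19b-3p: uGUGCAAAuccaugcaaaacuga
miR-92a-3p: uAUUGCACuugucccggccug
The minor strands are listed next.
miR-17-3p: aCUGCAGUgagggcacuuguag
miR-20a-3p: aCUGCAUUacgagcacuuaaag
miR-18a-3p: aCUGCCCUaagugcuccuucug
miR-19b-1-5p: aGUUUUGCagguuugcauccagc
miR-92a-1-5p: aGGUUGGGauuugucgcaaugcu

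The major arms carry 4 seeds. miR-17-5p and miR-20a-5p share AAAGUGC with miR-20b, miR-93, miR-106a and miR-106b of the paralogue clusters, and, counted from the 5′ end, miR-17-5p and miR-20a-5p differ by C1U and C12U, outside the seed. miR-18a-5p shares AAGGUGC with miR-18b-5p. miR-19a-3p and miR-19b-3p share GUGCAAA and differ by the single substitution U11C. miR-92a-3p shares AUUGCAC with miR-25-3p and miR-363-3p, and it differs from miR-25-3p by U1C, C14U and C18U.

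Reads that match the hairpins exactly (templated reads) could be given to 1 locus for 3 of the 6 members. None of the 22451 to 99889 templated reads of Mir17, the 86725 to 194775 of Mir19a or the 24917 to 127300 of Mir20a in a library matched another hairpin. Of the Mir18 reads, 0.106% to 0.306% also matched Mir18b of the mir-106a cluster. Mir19b-1 was at the other extreme, since 99.87% to 99.92% of its reads also matched Mir19b-2 on chromosome X. The stretches that set this, read from the hairpins of GRCm38 from the main 5′ end, are shown with the first different base in capitals.
Mir19b-1: tgtgcaaatccatgcaaaactgaC
Mir19b-2: tgtgcaaatccatgcaaaactgaT
Mir92-1: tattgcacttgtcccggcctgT
Mir92-2: tattgcacttgtcccggcctgA
The pair of mir-19b arms is identical for 23 bases and the pair of mir-92a arms for 21 bases.

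The 3p arms of both pairs were therefore counted together, as miR-19b-3p and miR-92a-3p. In miR-19b-3p, 64 and 180 reads matched Mir19b-1 alone in Ago2 CD livers, against 87 and 25 in wildtype livers, while 1251 and 731 matched Mir19b-2 alone in Ago2 CD livers, against 501 and 637 in wildtype livers. In miR-92a-3p, 87.0% and 81.4% of reads matched Mir92-1 alone in Ago2 CD livers, against 82.1% and 86.5% in wildtype livers, and 1.05% to 1.94% matched Mir92-2 alone. These splits have a limit: a shared stretch with a single added U reads as the longer Mir19b-2 or Mir92-1 form, and a shared stretch with an added C or A as the longer Mir19b-1 or Mir92-2 form. The 5p arms are not shared, and there Mir19b-1 had 481 and 285 reads in Ago2 CD livers, against 103 and 201 in wildtype livers. Mir19b-2 had 1 and 1 reads in Ago2 CD livers on that arm, against 0 and 4 in wildtype livers. The same arm had 162 and 170 reads for Mir92-1 in Ago2 CD livers, against 75 and 113 in wildtype livers. Mir92-2 had 0 and 1 reads there in Ago2 CD livers, against 0 and 0 in wildtype livers. A count of 0 allows up to 3 reads.

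Levels of the 6 major arms differed widely although they come from a single transcript. miR-19b-3p, which shares its seed with miR-19a and includes reads of Mir19b-2, was highest, with 20183 and 42319 CPM in Ago2 CD livers, against 41388 and 20100 CPM in wildtype livers. miR-19a-3p had 9450 and 18776 CPM in Ago2 CD livers, against 20412 and 9496 CPM in wildtype livers. miR-92a-3p had 5088 and 13924 CPM in Ago2 CD livers, against 11314 and 5679 CPM in wildtype livers. In these 3 arms the genotypes overlapped fully and the 50 nt library of either genotype was the higher one.

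The 5p major arms, which hold the miR-17 and miR-18 seeds, ran the other way. miR-20a-5p had 6201 and 3946 CPM in Ago2 CD livers, against 3965 and 6075 CPM in wildtype livers. miR-17-5p had 4658 and 3676 CPM in Ago2 CD livers, against 3429 and 4777 CPM in wildtype livers. miR-18a-5p had 3110 and 2224 CPM in Ago2 CD livers, against 2126 and 2894 CPM in wildtype livers. Here the 46 nt library was the higher one in both genotypes. Within a library the order of levels was miR-19b-3p, miR-19a-3p, miR-92a-3p, miR-20a-5p, miR-17-5p and miR-18a-5p. The exception was that miR-20a-5p exceeded miR-92a-3p in both 46 nt libraries. Over the 4 libraries together, the ranges of neighbours in this order overlapped, except those of miR-17-5p and miR-18a-5p. Reads were weighed by number, and how well each sequence is captured in a library was not tested. In bulk tissue, fewer cells of a type and less RNA per cell cannot be told apart.

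The minor arms were at 8.13 to 358 CPM. miR-17-3p was the most abundant of them, with 238 and 358 CPM in Ago2 CD livers, against 233 and 218 CPM in wildtype livers. miR-19a-5p had 63.0 and 195.7 CPM in Ago2 CD livers, against 174.5 and 62.6 CPM in wildtype livers, following the library length like its 3p partner. The rarest arm was miR-92a-1-5p, with 8.13 and 17.9 CPM in Ago2 CD livers, against 12.6 and 12.8 CPM in wildtype livers.

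**Figure D1:**
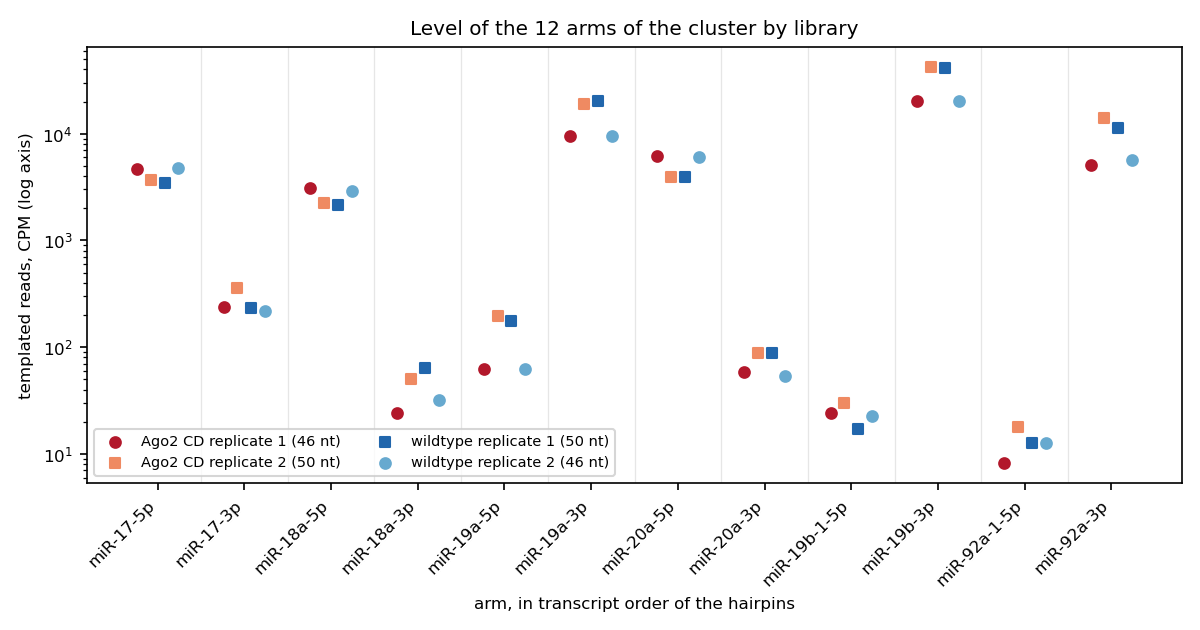
Level of each of the 12 arms in CPM (log axis) by library; circles are 46 nt libraries and squares 50 nt libraries, Ago2 CD in red tones and wildtype in blue tones. miR-19b-3p sits at 42319 and 41388 CPM in the 50 nt libraries and at 20183 and 20100 CPM in the 46 nt libraries, whichever the genotype.

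Between genotypes, none of the 12 arms passed the threshold. Over all annotated arms, edgeR's quasi-likelihood test with Benjamini-Hochberg adjustment called 2 of 583 arms (0.343%), miR-451a and the merged arm of miR-486-3p, and 17 arms had an unadjusted p under 0.05, none of them from the cluster. DESeq2 called 6 arms (1.03%) and none from the cluster. The log2 change of Ago2 CD over wildtype was 0.02 ± 0.57 (SE) for miR-19b-3p, -0.08 ± 0.56 for miR-19a-3p, 0.16 ± 0.64 for miR-92a-3p, 0.02 ± 0.40 for miR-20a-5p, 0.02 ± 0.32 for miR-17-5p and 0.09 ± 0.34 for miR-18a-5p, each with an adjusted p of 0.998. The median over the 12 arms was 0.043, beside 0.042 over all arms tested. Each genotype group spans a 46 nt and a 50 nt library.

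Within the library pairs the major arms were close to equal. miR-19b-3p differed by 0.006 (log2, Ago2 CD over wildtype) in the 46 nt pair and by 0.03 in the 50 nt pair, and miR-20a-5p by 0.03 and -0.007. miR-92a-3p had the widest spread of the major arms, -0.16 in the 46 nt pair and 0.30 in the 50 nt pair. With library length as a term in the same edgeR model, 10 of 583 arms were called (1.72%), none from the cluster. The SEs of the major arms narrowed to 0.12 to 0.16. With so few libraries, that model leaves little spread to measure in each arm, and these SEs rest largely on variation shared over all arms. The same holds for each fit below with both library length and genotype. In the edgeR model with library length, miR-17-3p was at a log2 change of 0.37 ± 0.17 (adjusted p = 0.261) and miR-19b-1-5p at 0.43 ± 0.26 (adjusted p = 0.371). miR-18a-3p was at -0.38 ± 0.21 (adjusted p = 0.345), and its difference was -0.42 in the 46 nt pair and -0.33 in the 50 nt pair. miR-17-3p and miR-19b-1-5p were the only ones of the cluster whose CPM did not overlap between genotypes, higher in both Ago2 CD libraries, and 29.7% of all arms tested did not overlap either.

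The contrast between 50 nt and 46 nt libraries, which was looked at after the levels had been seen, gave 9 calls among the 12 arms. With genotype in the model, edgeR called 219 of 583 arms (37.6%), with 110 higher (18.9%) and 109 lower (18.7%) in the 50 nt libraries. In the cluster 6 arms were higher and 3 lower, and the same number, 9 arms, had CPM that did not overlap between library lengths (60.5% of all arms). The 3 lower ones were the major 5p arms: miR-20a-5p changed by -0.63 ± 0.12 log2 (adjusted p = 0.0106), miR-18a-5p by -0.46 ± 0.12 (adjusted p = 0.0252) and miR-17-5p by -0.41 ± 0.13 (adjusted p = 0.0427). The 3 major 3p arms were higher, miR-92a-3p by 1.22 ± 0.16 log2 (adjusted p = 0.00283), miR-19b-3p by 1.06 ± 0.15 (adjusted p = 0.00359) and miR-19a-3p by 1.05 ± 0.14 (adjusted p = 0.00283).

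Of the minor arms, 3 were higher in the 50 nt libraries. miR-19a-5p changed by 1.56 ± 0.17 log2, miR-18a-3p by 1.02 ± 0.21 and miR-20a-3p by 0.66 ± 0.19, with adjusted p of 0.00144, 0.0129 and 0.0337 in edgeR. miR-17-3p (0.34 ± 0.17), miR-92a-1-5p (0.58 ± 0.33) and miR-19b-1-5p (-0.03 ± 0.26) were not called. Over the 12 arms, the median size of the change was 0.645 log2 between library lengths and 0.069 between genotypes, beside 0.518 and 0.295 over all arms tested. The labels do not say why the longest read differs. It moves with the neuronal miRNAs, with miR-122, miR-192, miR-144, miR-223 and miR-150, and with the 3′ ends and added cytosines described here. These cannot be told apart. miR-17-5p and miR-18a-5p had the same direction but were not called with DESeq2 size factors (nor was miR-20a-3p), with tailed reads counted or without genotype in the model (nor were miR-18a-3p and miR-20a-3p), and miR-17-5p was not called with reads of 16 to 30 nt.

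**Figure D2:**
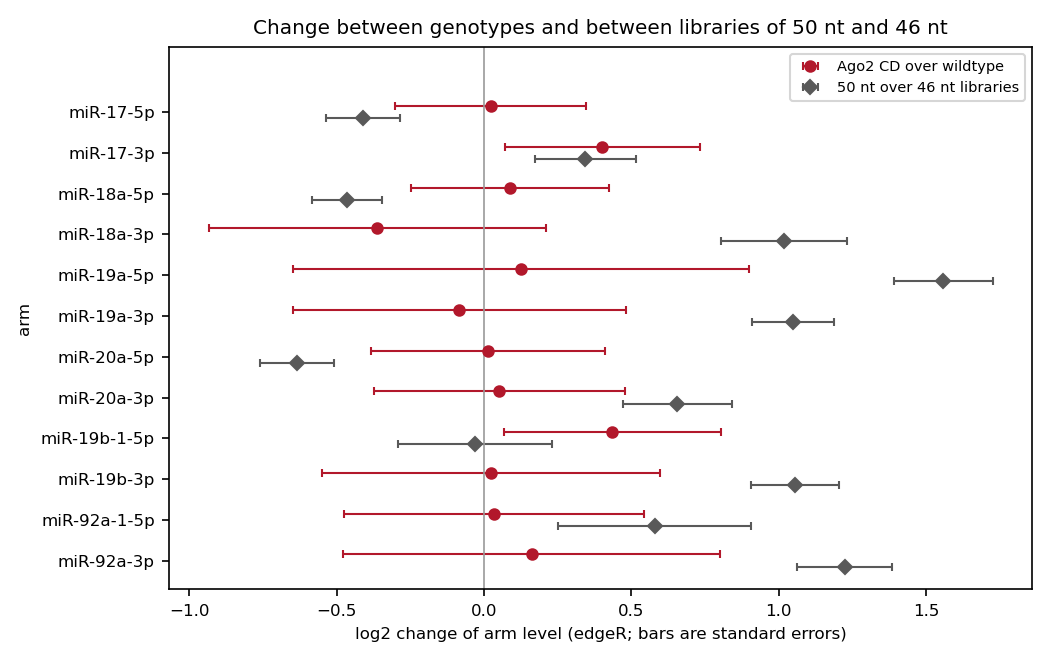
Log2 change of each of the 12 arms (x axis) with its standard error, for Ago2 CD over wildtype (red circles) and for 50 nt over 46 nt libraries (grey diamonds), both from edgeR. The genotype changes lie between -0.36 and 0.44 with wide errors, while the change between library lengths is -0.63 for miR-20a-5p and 1.22 for miR-92a-3p.

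The make-up of the cluster followed the same division. The 12 arms held 978488 and 814150 templated reads in Ago2 CD livers, against 496878 and 437600 in wildtype livers. This was 6.78% and 10.4% of arm reads in Ago2 CD livers, against 5.13% and 4.77% in wildtype livers. Without mir-451a, which took a large share of the wildtype reads, the share was 6.80% and 10.5% in Ago2 CD livers, against 10.7% and 7.96% in wildtype livers. For every read of miR-17-5p, miR-18a-5p and miR-20a-5p there were 2.49 and 7.62 reads of miR-19a-3p, miR-19b-3p and miR-92a-3p in Ago2 CD livers, against 7.68 and 2.57 in wildtype livers. The libraries of equal length thus differed little in this ratio, and those of different length by about as much in either genotype. miR-20a made up 12.7% and 4.71% of the cluster's reads in Ago2 CD livers, against 4.87% and 12.4% in wildtype livers. miR-19b made up 41.2% and 49.5% in Ago2 CD livers, against 49.8% and 40.7% in wildtype livers.

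**Figure D3:**
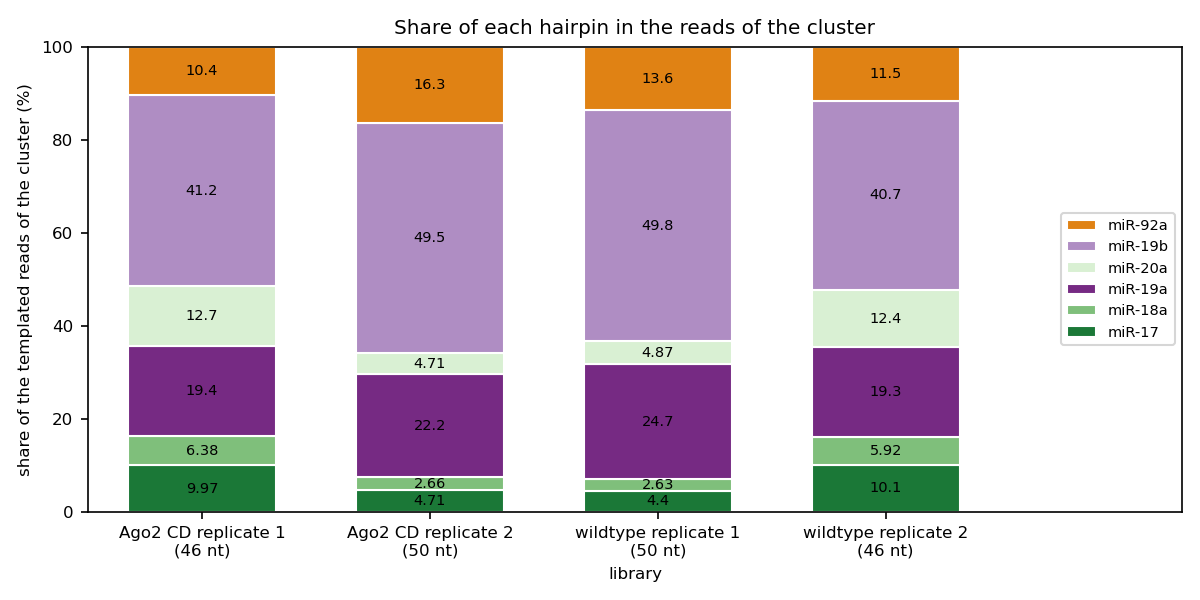
Share of each hairpin's 2 arms in the templated reads of the cluster (y axis, %), 1 bar per library. miR-17, miR-18a and miR-20a (green) take a larger share in the 46 nt libraries, and miR-19b takes 49.5% and 49.8% in the 50 nt libraries.

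The balance of the arms within each hairpin was measured as the share of the minor arm. Mir17 had the most even hairpin, and its 3p arm took 4.85% and 8.88% of the reads of both arms in Ago2 CD livers, against 6.35% and 4.37% in wildtype livers. The 3p arm of Mir18 took 0.767% and 2.21% in Ago2 CD livers, against 2.88% and 1.10% in wildtype livers, and that of Mir20a 0.931% and 2.18% in Ago2 CD livers, against 2.17% and 0.870% in wildtype livers. For the hairpins with a 3p major arm, the 5p share was 0.655% to 1.03% (Mir19a), 0.0417% to 0.119% (Mir19b-1) and 0.111% to 0.224% (Mir92-1). The shares of Mir19b-1 and Mir92-1 are lower limits, since their 3p arms include the paralogues' reads. The 95% Clopper-Pearson intervals, which cover counting error only, were narrow beside the differences between libraries: 8.60% to 9.17% for the 8.88% and 4.18% to 4.57% for the 4.37% of Mir17.

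Between genotypes, limma on the log2 ratio of 3p to 5p reads called 2 of 224 hairpins (0.893%) and none of the 6 members, with none at an unadjusted p under 0.05 in the cluster. The changes ran from -0.46 ± 0.82 for Mir18 to 0.34 ± 0.62 for Mir17 (log2, SE, adjusted p = 0.995 for each). Between 50 nt and 46 nt libraries limma called 3 of 224 hairpins (1.34%), 2 higher (0.893%) and 1 lower (0.446%), and none of the members. The largest changes were 1.48 ± 0.21 for Mir18 (adjusted p = 0.0536) and 1.29 ± 0.21 for Mir20a (adjusted p = 0.0540), both toward the 3p arm.

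The 3′ ends of the miR-19 arms differed most plainly between library lengths. Their main templated forms start at the same base and are shown with the bases beyond the shortest form in capitals.
miR-19b-3p, 18 nt: tgtgcaaatccatgcaaa
miR-19b-3p, 20 nt: tgtgcaaatccatgcaaaAC
miR-19b-3p, 23 nt: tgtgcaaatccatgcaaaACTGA
miR-19a-3p, 18 nt: tgtgcaaatctatgcaaa
miR-19a-3p, 20 nt: tgtgcaaatctatgcaaaAC
miR-19a-3p, 23 nt: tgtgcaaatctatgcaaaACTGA
Shares of miR-19b-3p forms are over the templated reads matching Mir19b-1. The 20 nt form made up 88.4% and 88.0% in the 50 nt libraries (355279 reads in Ago2 CD replicate 2 and 217047 in wildtype replicate 1). In the 46 nt libraries it made up 0.549% and 0.515% (2203 reads in Ago2 CD replicate 1 and 914 in wildtype replicate 2). The 18 nt form was nearly absent from the 50 nt libraries, with 31 reads in Ago2 CD replicate 2 and 25 in wildtype replicate 1, and had 166849 reads (41.6%) in Ago2 CD replicate 1 and 75336 (42.5%) in wildtype replicate 2. The 23 nt form, equal to the RefSeq mature sequence, took 3.43% and 3.81% in the 50 nt libraries (Ago2 CD, wildtype) and 41.9% and 40.9% in the 46 nt libraries.

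miR-19a-3p, which differs from miR-19b-3p by a base within the common 18 nt, had the same 3 forms in nearly the same shares. Its 20 nt form took 86.2% and 85.4% in the 50 nt libraries (Ago2 CD, wildtype) and 0.514% and 0.412% in the 46 nt libraries, and its 18 nt form had 11 and 6 reads in the 50 nt libraries and 79954 and 36348 reads in the 46 nt libraries. Both genotypes thus had 1 form in 1 library and 2 other forms in the other. The mean length of miR-19b-3p was 20.70 and 20.16 nt in Ago2 CD livers, against 20.19 and 20.66 nt in wildtype livers.

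The miR-18a arms had a similar switch of ends. The forms are shown with the additional bases in capitals.
miR-18a-5p, 21 nt: taaggtgcatctagtgcagat
miR-18a-5p, 23 nt: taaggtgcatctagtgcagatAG
miR-18a-3p, 20 nt: actgccctaagtgctccttc
miR-18a-3p, 23 nt: actgccctaagtgctccttcTGG
The 21 nt form of miR-18a-5p took 56.2% and 59.5% of templated reads in the 50 nt libraries (Ago2 CD, wildtype) and 22.5% and 21.5% in the 46 nt libraries. The 23 nt form took 7.89% and 7.57% in the 50 nt libraries and 34.0% and 34.2% in the 46 nt libraries. On the rare 3p arm the 23 nt form was read 0 times in both 50 nt libraries, which allows up to 0.629% of the reads in Ago2 CD replicate 2 and 0.796% in wildtype replicate 1. It was read 216 and 133 times in the 46 nt libraries (Ago2 CD, wildtype), while the 20 nt form had 260 and 206 reads in the 50 nt libraries and 7 and 3 in the 46 nt libraries. The form of 24 nt, a base longer, was present in all libraries, with 85 and 43 reads in the 50 nt libraries and 35 and 24 in the 46 nt libraries. Its last base is C, so a 23 nt form with an added C counts as this form. The 20 nt forms of miR-18a-3p, miR-19a-3p and miR-19b-3p also end in C. A form a base shorter with an added C counts as them.

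The other major arms kept their main form. The 23 nt form of miR-17-5p stayed the most frequent, at 54.5% and 32.2% in Ago2 CD livers, against 33.4% and 53.6% in wildtype livers. The 23 nt form of miR-20a-5p was at 61.9% and 36.8% in Ago2 CD livers, against 37.99% and 61.1% in wildtype livers. Forms of 20, 21 and 24 nt were more frequent in the 50 nt libraries for both arms. miR-92a-3p was the steadiest in the share of its main form. Its 22 nt form is the Mir92-1 stretch printed above. Of the reads matching Mir92-1 it made up 78.1% and 76.2% in Ago2 CD livers, against 77.4% and 78.2% in wildtype livers.

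Mean length was tested with limma over 254 arms. Between genotypes 1 arm was called (0.394%), miR-451a, and none of the 10 cluster arms deep enough for this test (200 reads or more per library). Between 50 nt and 46 nt libraries 172 arms were called (67.7%), among them 8 of the 10 cluster arms. Shorter in the 50 nt libraries were 6 of them (29.9% of all arms were shorter), from miR-18a-3p at -0.94 ± 0.10 nt (adjusted p = 0.00294) to miR-17-5p at -0.15 ± 0.03 nt (adjusted p = 0.0271). Longer were miR-19a-5p at 0.26 ± 0.04 nt and miR-20a-3p at 0.16 ± 0.04 nt (37.8% of all arms were longer). The sources used here do not give the adapter trimming settings. The hairpin bases that follow the 20 nt form of miR-18a-3p, TGG, equal the start of the TruSeq small RNA 3′ adapter. Those after the 20 nt forms of miR-19a-3p and miR-19b-3p (TGA) differ from it in the last base. So do those after the 19 nt form of miR-92a-3p (TGT). If that adapter was used, the length of a read may not be that of the RNA. This bears on the share of these forms and on the missing 23 nt form of miR-18a-3p. The part of trimming in the 3′ ends was not tested.

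**Figure D4:**
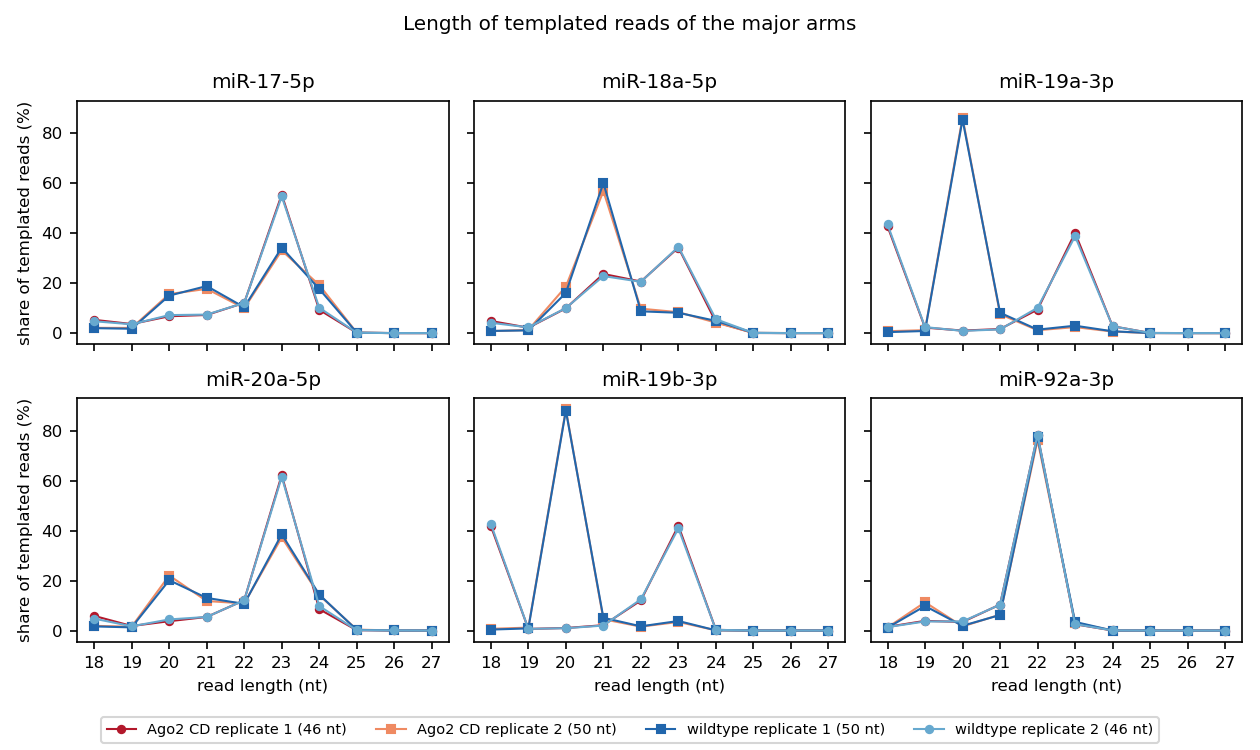
Share of templated reads (y axis, %) by read length (x axis, 18 to 27 nt) for the 6 major arms, 1 line per library with circles for 46 nt and squares for 50 nt libraries. For miR-19b-3p and miR-92a-3p the reads are those matching Mir19b-1 and Mir92-1. Lines of equal library length lie on each other for both genotypes, and for miR-19b-3p all reads of 20 nt reach 88.5% and 88.1% in the 50 nt libraries.

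Starts set the seed and were less variable. The most frequent start held at least 90% of templated reads in all 4 libraries for miR-18a-5p, miR-18a-3p, miR-19a-3p, miR-20a-5p, miR-19b-3p, miR-92a-3p and miR-92a-1-5p. The least fixed start was that of miR-19a-5p, for which RefSeq lists no mature sequence. Its main start held 78.6% and 65.1% in Ago2 CD livers, against 68.1% and 78.0% in wildtype livers, and reads that began a base later held 17.9% and 32.7% in Ago2 CD livers, against 30.5% and 18.95% in wildtype livers. The main start of miR-92a-3p held 90.8% and 96.6% in Ago2 CD livers, against 97.5% and 91.6% in wildtype livers. For miR-17-5p it held 84.7% and 90.7% in Ago2 CD livers, against 92.2% and 84.9% in wildtype livers.

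Between genotypes limma called none of 254 arms for the main start (0%), with 3 arms at an unadjusted p under 0.05, none of them in the cluster, and with library length in the model it called 1 (0.394%), not in the cluster. Between 50 nt and 46 nt libraries it called 123 arms (48.4%), 4 of the 10 cluster arms among them. The main start was more frequent in the 50 nt libraries for miR-92a-3p, miR-17-5p and miR-18a-3p (39.4% of all arms) and less frequent for miR-19a-5p (9.06% of all arms).

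Tails, meaning 1 to 3 nt at the 3′ end that do not continue the hairpin, differed in share between the members. Their share is given over the templated and tailed reads of an arm, and an added base that happens to equal the next hairpin base counts as templated. Few were read on miR-19a-3p and miR-19b-3p: miR-19b-3p was tailed in 1.97% and 2.56% of reads in Ago2 CD livers, against 2.80% and 2.08% in wildtype livers. Its tails without cytosine were on 1.87% and 0.58% in Ago2 CD livers, against 0.75% and 1.99% in wildtype livers. A read cut before the end of its RNA would lack the tail, and the part of trimming in the tailed shares was not tested. miR-17-5p was tailed in 19.5% and 27.6% in Ago2 CD livers, against 26.7% and 20.99% in wildtype livers. miR-92a-3p was tailed in 16.5% and 33.7% in Ago2 CD livers, against 30.6% and 17.2% in wildtype livers. In all arms together, tails were on 8.73% and 22.1% of reads in Ago2 CD livers, against 16.9% and 6.83% in wildtype livers.

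The added base differed between arms and between libraries. In the 46 nt libraries a single adenine was the most frequent tail of miR-20a-5p and miR-17-5p. It was on 11.9% and 7.97% in Ago2 CD livers, against 8.57% and 13.5% in wildtype livers, for miR-20a-5p. For miR-17-5p it was on 10.5% and 6.65% in Ago2 CD livers, against 7.55% and 11.8% in wildtype livers. In the 50 nt libraries single cytosines were more frequent than single adenines for both arms, except in miR-20a-5p of wildtype replicate 1. For miR-92a-3p, tails of 2 or 3 nt led in the 46 nt libraries, and they took 10.3% and 8.26% of reads in Ago2 CD livers, against 9.90% and 10.9% in wildtype livers. A single cytosine was nearly confined to the 50 nt libraries for the major arms: in miR-92a-3p it was at 21.3% and 15.95% there (Ago2 CD, wildtype) and at 0.117% and 0.171% in the 46 nt libraries, and in miR-18a-5p at 13.05% and 10.4% in the 50 nt libraries and 0.118% and 0.100% in the 46 nt libraries. Over all arms single cytosines were at 16.3% and 12.8% in the 50 nt libraries and 0.149% and 0.126% in the 46 nt libraries.

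**Figure D5:**
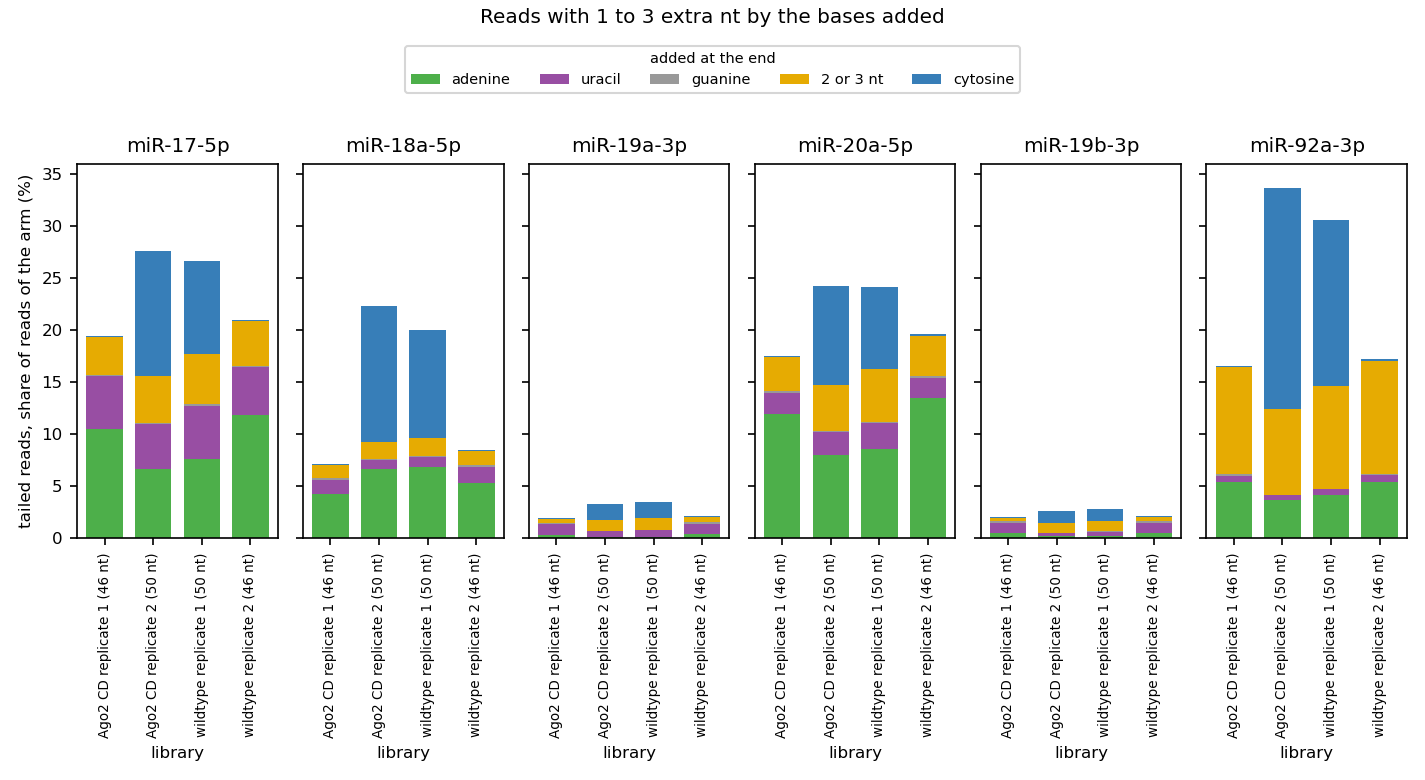
Share of reads of each major arm that carry a tail (y axis, %), stacked by the single base added or by a tail of 2 or 3 nt, 1 bar per library. Single cytosines reach 21.3% and 15.95% of miR-92a-3p reads in the 50 nt libraries, and miR-19b-3p stays between 1.97% and 2.80% in all.

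Between genotypes limma called none of 277 arms for the tailed share (0%) and none had an unadjusted p under 0.05; with library length in the model it called 2 (0.722%), none from the cluster. Between 50 nt and 46 nt libraries it called 208 arms (75.1%), 7 of the 10 cluster arms among them, 6 with a higher tailed share (69% of all arms) and miR-19a-5p with a lower one (6.14%). Tails without cytosine were counted apart, a choice made after seeing the data. Their odds against templated reads were lower in Ago2 CD than in wildtype in both library pairs for 10 of 10 cluster arms, beside 133 of all 277 arms (48.0%). The changes were small, from -0.14 ± 0.11 log2 for miR-92a-3p to -0.50 ± 0.13 for miR-17-3p with library length in the model, and no cluster arm passed the threshold. The smallest adjusted p in limma was 0.263, shared by miR-17-3p and miR-20a-3p, both with an unadjusted p under 0.05, and 1 of the 277 arms was called (0.361%).

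The paralogue hairpins gave 11 arms of their own that could be tested, and none was called between genotypes (median log2 change 0.057). miR-25-3p, which shares its seed with miR-92a, had 4522 and 11281 CPM in Ago2 CD livers, against 8592 and 4466 CPM in wildtype livers. miR-93-5p, which shares its seed with miR-17, had 4283 and 2653 CPM in Ago2 CD livers, against 2308 and 3876 CPM in wildtype livers. miR-106b-5p, of the same seed, had 3234 and 2778 CPM in Ago2 CD livers, against 2720 and 3132 CPM in wildtype livers. miR-106b-3p had 88.4 and 135.8 CPM in Ago2 CD livers, against 149.1 and 103.7 CPM in wildtype livers. Between library lengths edgeR called 3 of the 11 arms higher and 3 lower in the 50 nt libraries. miR-25-3p changed by 1.13 ± 0.15 log2 (adjusted p = 0.00283), near the change of miR-92a-3p, and miR-93-5p by -0.72 ± 0.12 (adjusted p = 0.00625), near that of miR-20a-5p.

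The arms outside these families whose profile was closest to the mean profile of the 6 major arms were miR-191-5p, miR-29b-3p, miR-146-5p, the merged miR-30b/30c-5p and miR-543-3p. The root mean square distance of centred log2 CPM over 4 libraries was 0.0049 for miR-191-5p and 0.0653 for miR-543-3p, among 191 arms compared. The mean profile averages 3 arms that are higher and 3 that are lower in the 50 nt libraries, so it varies little: miR-191-5p had 1726 and 2165 CPM in Ago2 CD livers, against 2085 and 1726 CPM in wildtype livers.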

How the data were processed

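Deposited files held counts of distinct read sequences with no normalization; the submitters' processing notes name cutadapt without a version, and the sources used here do not give trimming settings, aligner or build. Reads were matched without mismatch, sense strand, to the hairpins of GENCODE vM21 (GRCm38). Reads of 18 to 27 nt counted for the arm on their side of the hairpin midpoint, and arms that could not be told apart were merged. Reads still matching several arms (0.00897% to 0.0296% of arm reads) and reads with an undetermined base (0.183% to 0.256%) were left out. Tailed reads are those that matched once their last 1, 2 or 3 nt were removed.

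Arm counts were tested over all 4 libraries with edgeR 4.0.16 in R 4.3.3 (quasi-likelihood test, TMM factors, low counts removed by filterByExpr); SEs are the fold change over the square root of F. limma 3.58.1 tested the arm ratio (hairpins with 20 or more reads per library and 10 or more on the minor arm in all), tailed share, mean length and main start share (arms with 200 or more reads per library), with a pseudocount of 0.5 for the log2 ratios. Tests were two-sided, Benjamini-Hochberg over all arms or hairpins tested, threshold 0.05. Functions were tested on simulated data. CPM used TMM-scaled library sizes, and within-pair differences a prior count of 2. Intervals are exact Clopper-Pearson at 95% and, without molecular identifiers, cover counting error only. The series' text calls the libraries biological replicates.

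Replicate numbers did not pair the libraries: deviations from the group means correlated at -0.72 between equal numbers over 583 arms. With 2 libraries per group, this fixes the value for crossed numbers at 0.72. Crossed numbers are the pairing by library length (46 or 50 nt). Alternatives were other scalings, DESeq2 1.42.0, limma voom, filters, read definitions, the replicate block, and leaving out each library; the crossed block, the contrast of library lengths and tails without cytosine with library length were added after seeing the data. The text names all 12 arms, paralogue arms with a mean of at least 100 CPM, and the 5 most alike arms of at least 100 CPM. Members, lists and most tests were chosen with earlier results of these data known. Other software was Python 3.11.15, NumPy 2.4.6, SciPy 1.17.1 and matplotlib 3.10.9.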

Additional observations from a re-analysis of the deposited data

How the results depend on the processing

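No alternative brought a cluster arm past the threshold between genotypes, in any of the 5 tests. The count of arms called for level, 2 as reported, was 0 to 4 when a library was left out, 10 with library length in the model, 6 with DESeq2, 11 with no filter on low counts and 1 with arms taken from RefSeq. Arm ratio calls (2) were 0 to 1 without a library. Tailed share calls (0) were 2 with library length in the model and 1 with tails without cytosine and library length. Mean length calls (1) were 0 in each fit that left out a library, and 0 with reads of 16 to 30 nt. Main start calls (0) were 1 with library length in the model.

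With the replicate number as a block, level calls stayed at 2 and length calls were 0, and the change of miR-92a-1-5p was -0.069. The crossed replicate block is the same fit as library length in the model, with 10 calls for level, 2 for the tailed share, 1 for the main start and -0.080 for miR-92a-1-5p.

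Several small changes turned sign. Without miR-451a and miR-486 in TMM, miR-17-5p was at -0.033, miR-20a-3p at -0.025, miR-20a-5p at -0.034, miR-19b-3p at -0.063 and miR-92a-1-5p at -0.044. DESeq2 and its size factors gave -0.0016 for miR-19b-3p, voom -0.15 for miR-92a-1-5p, tailed reads counted -0.016 and RefSeq arms -0.0022 for miR-20a-5p. Library sizes from arm reads, or from reads of at least 18 nt, moved the median of all arms to 0.74 and 0.57, miR-18a-3p to 0.43 and 0.24, and miR-19a-3p to 0.72 and 0.54.

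Leaving out a library also moved the log2 change: miR-17-5p -0.15 to 0.31, miR-17-3p 0.089 to 0.68, miR-18a-3p -0.97 to 0.23, miR-18a-5p -0.16 to 0.36, miR-19a-5p -0.89 to 1.07, miR-19a-3p -0.64 to 0.60, miR-20a-5p -0.34 to 0.39, miR-20a-3p -0.26 to 0.49, miR-19b-3p -0.59 to 0.66, miR-19b-1-5p 0.28 to 0.67, miR-92a-1-5p -0.62 to 0.51 and miR-92a-3p -0.72 to 0.77. For the arm ratio the ranges were -0.13 to 0.81 for mir-17, -1.23 to 0.31 for mir-18a, -0.47 to 0.17 for mir-19a, -0.61 to 0.72 for mir-20a, -1.14 to 0.30 for mir-19b and -0.36 to 0.65 for mir-92a. Each such fit leaves a group with 1 library, assumed to vary like the other group.

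For 50 nt over 46 nt libraries, 219 level calls became 132 with DESeq2 size factors, 132 with tailed reads counted and 55 without genotype in the model, where 5 cluster arms were called in place of 9; miR-19b-1-5p turned to 0.019 with voom and 0.016 without genotype. The 3 arm ratio calls were 20 with tailed reads counted. Counting reads of 1 hairpin only took miR-19b to a mean of 0.108% of the cluster's reads in Ago2 CD livers and 0.0846% in wildtype livers, by construction. The cause of the other shifts was not tested. With 2 libraries per genotype, changes of more than an SE were still not called, such as 0.37 ± 0.17 for miR-17-3p with library length in the model.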
